A study of Homo sapiens with 15 samples.

Results

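The 10 genes described here encode the ligase, lectins, mannosidase-like factors and derlins of ER-associated degradation (ERAD). They are SYVN1, SEL1L, HERPUD1, EDEM1, EDEM2, EDEM3, OS9, DERL1, DERL2 and SELENOS, and they were taken by symbol from the 59608 genes of the deposited table. All 10 were in the table and all 10 passed the filter of a mean of at least 10 normalized counts, with 13561 genes passing in all. The RNA came from MDA-MB-231, a human triple-negative breast cancer cell line, grown as 2D cultures in dishes. Cells received 0.1% DMSO as vehicle or ZJ-101, a small molecule related to superstolide A, at 0.5, 5, 50 or 500 nM, and RNA was taken after 6 h. Each of the 5 groups held 3 libraries labelled as replicates, and all 4 doses were compared with the same 3 DMSO libraries, so the comparisons are not independent of each other. The cells are 1 established line, and no other line enters the data used here.

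ERAD removes misfolded proteins from the endoplasmic reticulum (ER). Mannosidases and the EDEM proteins trim mannose from the glycans of such proteins, lectins such as OS9 read the trimmed glycan, and the membrane ligase SYVN1 (also called HRD1), held by its partner SEL1L, attaches ubiquitin. Derlins and SELENOS sit in the same membrane complex and connect it to the ATPase VCP, which pulls the substrate into the cytosol for the proteasome. Several of these genes are textbook targets of the unfolded protein response, the transcriptional answer to misfolded proteins in the ER.

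The libraries held between 12415519 and 15284762 recovered reads on genes, and mitochondrial genes took between 0.889% and 2.06% of these. Of 5 markers chosen for a mesenchymal or basal breast line, VIM, CD44, EGFR and AXL had between 4617 and 14599 normalized counts in the DMSO libraries, whereas SPARC had 5.07 at most. Of 4 luminal or epithelial markers, ESR1 was at 0 in all 3 DMSO libraries and PGR had a mean of 14.0 ± 2.34 (SD, n = 3), but CDH1 with 196 ± 6.49 (SD, n = 3) and EPCAM with 293 ± 22.0 (SD, n = 3) were not near 0. Replicate 2 at 0.5 nM stood apart from its group. The chi-square of its counts against those of each other 0.5 nM library, divided by the degrees of freedom, was 11.1 and 16.5, against 2.04 to 6.27 for the 13 other pairs of replicates. Counts of members and of other ERAD genes past the threshold are therefore also given without it.

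At 500 nM, 9 of the 10 genes passed the threshold, an adjusted p under 0.05 by limma on log2(normalized count + 1) with Benjamini-Hochberg adjustment over all tested genes. HERPUD1, SEL1L, EDEM1, EDEM2, EDEM3 and OS9 fell, SYVN1, SELENOS and DERL1 rose, and DERL2 did not pass. Of all tested genes, 10.1% fell and 7.69% rose at this dose. The median log2 fold change of the 10 genes was -0.23, against 0.003 for all tested genes. At 50 nM, 3 of the 10 fell (EDEM1, EDEM3 and HERPUD1) and 2 rose (SYVN1 and SELENOS), where 3.71% of all tested genes fell and 2.29% rose. Their median was -0.09, and that of all tested genes was -0.002. At 5 nM none of the 10 passed, with 2.18% of all tested genes past the threshold in either direction. At 0.5 nM none passed either, with 1.17% past it. At an unadjusted p under 0.05, 2 members were lower and 0 higher at each of these low doses. edgeR called 1 member at 5 nM, HERPUD1, and 0 at 0.5 nM, and DESeq2 called 0 at both. Without 0.5 nM replicate 2 the numbers were 9 at 500 nM, 5 at 50 nM, 1 at 5 nM and 0 at 0.5 nM. The counts over all genes moved as well without it, from 2409 to 3097 at 500 nM, from 814 to 1276 at 50 nM, from 295 to 623 at 5 nM and from 159 to 154 at 0.5 nM, so the shares above are those with all 15 libraries.

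**Figure D1:**
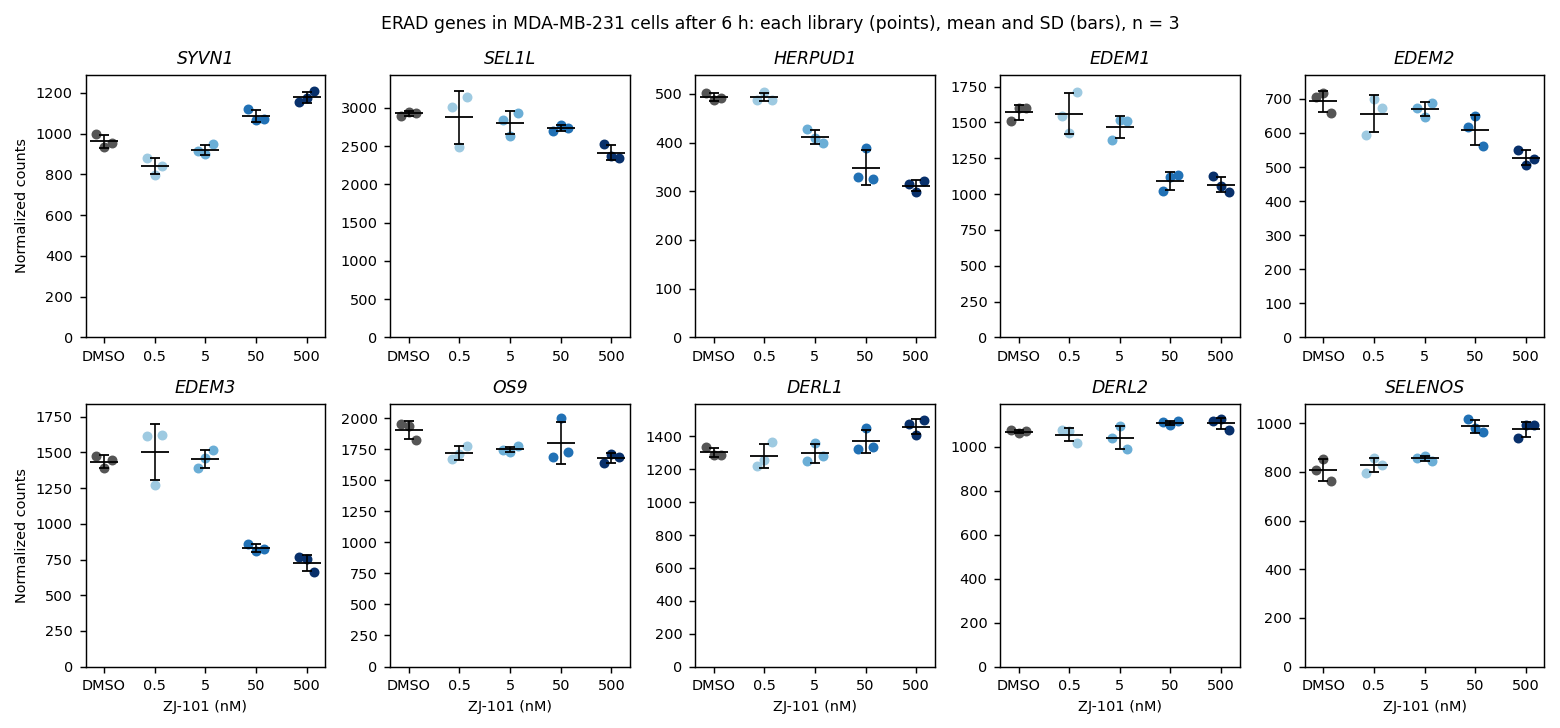
Normalized counts (y axis, starting at 0) of the 10 ERAD genes in DMSO and at 0.5, 5, 50 and 500 nM ZJ-101 (x axis), with 1 point per library and bars for the mean and SD (n = 3). EDEM3, EDEM1 and HERPUD1 lie lower at 50 and 500 nM than in DMSO, SYVN1 and SELENOS lie higher, and DERL2 stays between 989.9 and 1124 in all 15 libraries.

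SYVN1 encodes the ubiquitin ligase at the center of the complex (chr11:65121780-65134532 on GRCh38). It had 998, 935 and 956 normalized counts in the DMSO libraries, 881, 799 and 843 at 0.5 nM, 917, 900.2 and 948 at 5 nM, 1119.6, 1068 and 1071 at 50 nM and 1154, 1174 and 1208 at 500 nM. Every library at 50 and 500 nM was above every DMSO library, while every library at 0.5 nM was below them. The log2 fold change was 0.29 at 500 nM (SE, the standard error, 0.05) with an adjusted p of 0.00029 by limma. At 50 nM it was 0.17 (adjusted p = 0.041), which was lost in 12 of 25 alternatives, with adjusted p of up to 0.18. Those were DESeq2, the omission of the filter, and the fits without DMSO replicate 2 or 3, 5 nM replicate 1 or 2, or any 1 of the 50 or 500 nM libraries. The lower level at 0.5 nM, a log2 fold change of -0.20, did not pass (adjusted p = 0.061). SYVN1 shares 9.99% of its exon bases with other genes, on the same strand (FAU and MIR6751) and on the opposite strand (MRPL49). The strandedness of the counting is not given in the sources used here, and reads in these shared bases cannot be assigned to 1 gene.

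SEL1L encodes the adaptor that stabilizes SYVN1 and receives substrates from the lectins (chr14:81471547-81533853). Its libraries held 2897, 2954 and 2940.1 normalized counts in DMSO, 3015, 2484 and 3140.3 at 0.5 nM, 2847, 2639 and 2932 at 5 nM, 2703, 2774 and 2734 at 50 nM and 2531, 2369.7 and 2347 at 500 nM. The 50 and 500 nM libraries lay below all DMSO libraries and the low count at 0.5 nM was that of replicate 2. SEL1L fell at 500 nM, with a log2 fold change of -0.28 (SE 0.07, adjusted p = 0.0053, limma). At 50 nM the change of -0.10 did not pass (adjusted p = 0.50).

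HERPUD1 encodes a membrane protein with a ubiquitin-like domain that binds SYVN1 and is among the best known targets of the unfolded protein response (chr16:56932142-56944864). It had 502, 488 and 491 normalized counts in DMSO, 488, 504 and 488 at 0.5 nM, 427, 408 and 399.7 at 5 nM, 329.9, 389.7 and 324 at 50 nM and 314, 298 and 321 at 500 nM. The libraries of each dose from 5 nM upward lay below those of DMSO, and those of 0.5 nM overlapped them. HERPUD1 fell by 0.51 at 50 nM (adjusted p = 6.7e-05) and by 0.66 at 500 nM (SE 0.07, adjusted p = 1.1e-06) on the log2 scale, by limma. At 5 nM the log2 fold change of -0.26 missed the threshold (adjusted p = 0.056). It passed in 6 of 25 alternatives, among them edgeR (adjusted p = 0.047) and the fits without 0.5 nM replicate 2 (0.032) or without 50 nM replicate 2 (0.019).

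The transcripts of the ligase and its partner thus changed in opposite directions at 500 nM, and this pair was chosen for comparison after its values had been seen. SYVN1 had 34.5, 31.6 and 32.5 normalized counts per 100 of SEL1L in the DMSO libraries, a mean of 32.9 ± 1.44 (SD, n = 3). The ratio was 29.4 ± 2.67 at 0.5 nM, 32.9 ± 1.07 at 5 nM, 39.7 ± 1.53 at 50 nM and 48.9 ± 3.01 at 500 nM (SD, n = 3 each). At 50 nM (41.4, 38.5 and 39.2) and 500 nM (45.6, 49.6 and 51.5) all libraries were above those of DMSO. The exact two-sided permutation p was 0.1 at each dose, the smallest that 3 against 3 libraries can give. At both doses every SYVN1 count was above, and every SEL1L count below, all DMSO counts of that gene. The order of the ratios and its permutation p therefore follow from the counts of the 2 genes and add no support. At 0.5 and 5 nM the exact permutation p was 0.2 and 1.0. The 2 transcripts differ in length, so the ratio can be compared between groups but is not a ratio of molecules.

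**Figure D2:**
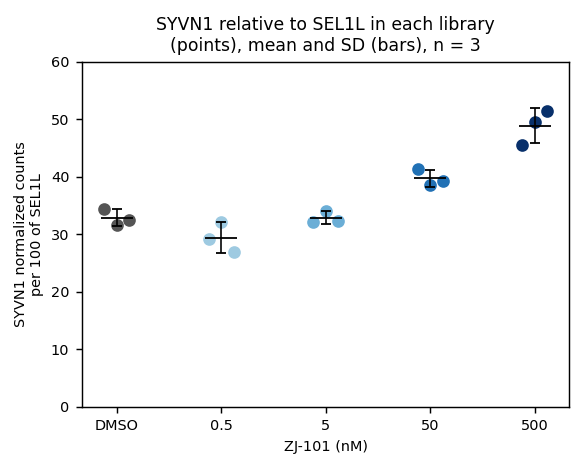
SYVN1 normalized counts per 100 normalized counts of SEL1L (y axis, from 0) in DMSO and at each ZJ-101 dose (x axis, nM), with 1 point per library and bars for the mean and SD (n = 3). The 3 libraries at 500 nM lie between 45.6 and 51.5, above the DMSO libraries at 31.6 to 34.5.

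EDEM3 had the largest change of the 10 genes. It encodes an EDEM protein of the ER lumen that promotes the trimming of mannose (chr1:184690237-184754907). The DMSO libraries held 1473, 1388 and 1448 normalized counts, the 0.5 nM libraries 1613, 1273 and 1622, the 5 nM libraries 1389, 1458 and 1516, the 50 nM libraries 862, 808 and 824 and the 500 nM libraries 764, 752 and 662. The 2 low doses overlapped DMSO, while no library at 50 or 500 nM reached a count seen in DMSO. The log2 fold change was -0.79 at 50 nM (SE 0.08, adjusted p = 1.4e-06, limma) and -0.99 at 500 nM (SE 0.08, adjusted p = 2.9e-08, limma), a decrease to 50.5% of the DMSO level. Neither the value of 0.06 at 0.5 nM nor that of 0.02 at 5 nM passed (adjusted p = 0.80 and 0.96).

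EDEM1, the founding member of the family (chr3:5187646-5219958), had 1509.7, 1597 and 1599.9 normalized counts in DMSO, 1541, 1428 and 1711 at 0.5 nM, 1379.8, 1519 and 1510.2 at 5 nM, 1019.7, 1122 and 1133 at 50 nM and 1123, 1059 and 1017 at 500 nM. Its 50 and 500 nM libraries overlapped each other and lay below all DMSO libraries. EDEM1 fell by 0.52 at 50 nM (adjusted p = 2.3e-05, limma) and by 0.56 at 500 nM (SE 0.06, adjusted p = 4.6e-06, limma) on the log2 scale. EDEM2, which acts early in mannose trimming (chr20:35115364-35147336), had 704, 716 and 657 normalized counts in DMSO, 595, 699.8 and 674 at 0.5 nM, 674, 648 and 687 at 5 nM, 617, 649 and 563 at 50 nM and 550.4, 507 and 524 at 500 nM. Its libraries at 50 and 500 nM lay below all DMSO libraries. Of the EDEM genes only EDEM2 was called at 500 nM and not at 50 nM, with log2 fold changes of -0.39 (adjusted p = 0.00039) and -0.19 (adjusted p = 0.13), although the difference between these doses did not pass (log2 difference -0.21, adjusted p = 0.15). EDEM1 shares 9.37% of its exon bases with other genes, while EDEM2 and EDEM3 share none.

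OS9 encodes the lectin that reads the trimmed glycan and hands the substrate to SEL1L (chr12:57693841-57728342). It had 1952, 1934 and 1824 normalized counts in DMSO, 1667, 1711 and 1774 at 0.5 nM, 1743, 1730.1 and 1773 at 5 nM, 1686, 1996 and 1725 at 50 nM and 1636, 1711 and 1683 at 500 nM. The libraries at 0.5, 5 and 500 nM lay below those of DMSO, and 50 nM replicate 2 lay above them. OS9 fell by 0.18 at 500 nM on the log2 scale (SE 0.05, adjusted p = 0.026, limma). This call was lost without the filter and without replicate 1 or 2 of DMSO, or replicate 1 or 3 of 500 nM, with adjusted p between 0.057 and 0.10. Other genes share 23.9% of its exon bases.

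The derlins and SELENOS form the part of the complex that meets VCP, and none of them fell. SELENOS (chr15:101270817-101277500), a selenoprotein that anchors VCP at the membrane, had 810.1, 852 and 762 normalized counts in DMSO, 797, 857 and 829 at 0.5 nM, 856, 867 and 847 at 5 nM, 1016, 981 and 966 at 50 nM and 941, 992 and 994 at 500 nM. All libraries at 50 and 500 nM were above those of DMSO. Its log2 fold change was 0.29 at 50 nM (adjusted p = 0.0010, limma) and 0.27 at 500 nM (SE 0.05, adjusted p = 0.00078, limma).

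DERL1, a derlin of the retrotranslocation channel, had 1336, 1286 and 1286 normalized counts in DMSO, 1223, 1256 and 1365 at 0.5 nM, 1249, 1362 and 1283 at 5 nM, 1322, 1452 and 1337 at 50 nM and 1473, 1407 and 1499.7 at 500 nM. It rose by 0.16 on the log2 scale at 500 nM (SE 0.05, adjusted p = 0.039, limma), a call that was lost without the filter and without any 1 of the DMSO libraries or 500 nM replicate 1 or 3, with adjusted p between 0.059 and 0.14. DERL2 (chr17:5471254-5486811), its close relative, had 1074, 1060.2 and 1070.3 normalized counts in DMSO, 1075, 1069 and 1018 at 0.5 nM, 1039.6, 1092 and 989.9 at 5 nM, 1111, 1096 and 1115 at 50 nM and 1116, 1124 and 1076 at 500 nM. The 50 and 500 nM libraries of DERL2 lay above all its DMSO libraries, at the closest with 1076 against 1074. Its log2 fold change at 500 nM was 0.05 with a 95% interval from -0.05 to 0.15 (adjusted p = 0.54). DERL1 shares 6.44% and DERL2 4.72% of exon bases with other genes.

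**Figure D3:**
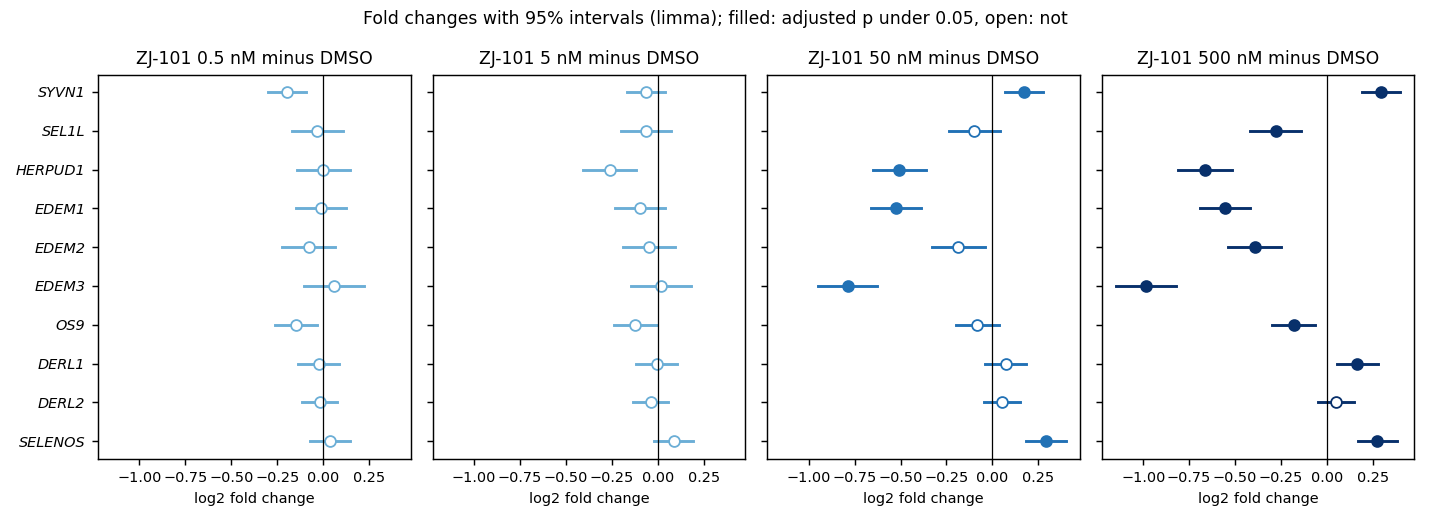
Log2 fold changes against DMSO (x axis) of the 10 ERAD genes (rows) at 0.5, 5, 50 and 500 nM ZJ-101 (panels from left to right), with 95% intervals from limma; filled points passed an adjusted p under 0.05. The values spread from -0.99 for EDEM3 to 0.29 for SYVN1 at 500 nM, while no point is filled at 0.5 or 5 nM.

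Steps between neighboring doses were compared in the same fit. From 5 to 50 nM, 3 members fell and 2 rose, where 2.39% of all tested genes fell and 2.62% rose. EDEM3 changed by -0.81 on the log2 scale over this step (adjusted p = 1.8e-06), EDEM1 by -0.43 (adjusted p = 0.00039) and SYVN1 by 0.24 (adjusted p = 0.0061, limma). SELENOS rose by 0.20 over it (adjusted p = 0.023), and was no longer past the threshold without the filter or without any 1 of the 5 nM libraries or 50 nM replicate 1 (highest adjusted p = 0.11). HERPUD1 changed by -0.25 (adjusted p = 0.046), which was lost in 18 of 25 alternatives (adjusted p of 0.19 at most), including edgeR (0.050), DESeq2 (0.085) and 12 of the 15 fits with 1 library left out, the exceptions being those without 0.5 nM replicate 2 or 3 or 50 nM replicate 2. Without the filter, without any 1 of the 5 nM libraries or without 50 nM replicate 1, the members past the threshold over this step numbered 3 (1 up, 2 down).

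From 0.5 to 5 nM none of the members passed, with 0.118% of all tested genes past the threshold in either direction, and at an unadjusted p under 0.05 there were 1 rise and 1 fall. From 50 to 500 nM none passed either, with 2.28% of all tested genes past it, and 1 rise and 4 falls at an unadjusted p under 0.05. edgeR and DESeq2 each called 0 members over both steps. Without 0.5 nM replicate 2, SEL1L (log2 difference -0.18, adjusted p = 0.013) and EDEM3 (-0.20, adjusted p = 0.035) passed from 50 to 500 nM. The linear trend over dose ranks, from 0 for DMSO to 4 for 500 nM, passed for 5 falling and 3 rising members, where 9.33% of all tested genes fell and 8.23% rose. It was steepest for EDEM3, at -0.28 log2 units per rank (adjusted p = 1.7e-05), and passed with -0.18 for HERPUD1 (3.2e-07), -0.16 for EDEM1 (1.0e-05), -0.09 for EDEM2 (0.00095), -0.06 for SEL1L (0.0074), 0.10 for SYVN1 (0.0019), 0.08 for SELENOS (0.00016) and 0.04 for DERL1 (0.025). OS9 and DERL2 did not pass (adjusted p = 0.16 and 0.33). Over the 12 treated libraries alone, the slope was 0.17 for SYVN1 (adjusted p = 2.2e-06) and 0.06 for DERL1 (adjusted p = 0.018), over 1.5 times the values with DMSO included. The slope of DERL1 was lost without the filter and without 500 nM replicate 1 or 3 (highest adjusted p = 0.095), and that of OS9 passed without 50 nM replicate 2 (adjusted p = 0.023).

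To compare levels between genes, normalized counts were divided by the length of the annotated MANE transcript and are given per kilobase. The exons of all annotated transcripts together can be longer, as for OS9 (8692 bases against 2682) and EDEM3 (18576 against 6837). Which transcripts the cells used is not known, and some exon bases are shared with other genes, so the order between genes is approximate. In DMSO the order from high to low was OS9 (710 ± 25.8), SELENOS (663 ± 36.9), DERL1 (405 ± 8.92), SEL1L (370.1 ± 3.73), EDEM2 (368 ± 16.5), SYVN1 (317 ± 10.7), EDEM1 (257 ± 8.41), DERL2 (256 ± 1.75), EDEM3 (210.1 ± 6.40) and HERPUD1 (173 ± 2.56), each with SD and n = 3. The libraries of neighbors in this order overlapped for OS9 and SELENOS, for SEL1L and EDEM2 and for EDEM1 and DERL2. At 500 nM the order was SELENOS (801 ± 25.0), OS9 (625 ± 14.2), DERL1 (454 ± 14.9), SYVN1 (388 ± 9.06), SEL1L (305 ± 12.7), EDEM2 (279.7 ± 11.7), DERL2 (265 ± 6.18), EDEM1 (174 ± 8.78), HERPUD1 (109 ± 4.13) and EDEM3 (106 ± 8.23). At this dose the libraries of HERPUD1 and EDEM3 overlapped, as did those of EDEM2 and DERL2, so the order within these pairs is not resolved. SYVN1 stood above SEL1L per kilobase in all 500 nM libraries and below it in all DMSO libraries. A lower level in bulk RNA can come from fewer cells that hold the transcript or from less of it in each cell, and these cannot be told apart here.

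Promoters of 9 of the 10 members were present in the RefSeq table used here (GRCh38.p14), DERL1 being the other. Shown are the bases just upstream of the start for HERPUD1 and EDEM3, which had the largest falls, and for SYVN1 and SELENOS, which had the largest rises, 5′ to 3′ on the strand of the gene and ending before the annotated GENCODE gene. Capitals mark CCAAT and CCACG on either strand, which are the parts of the ER stress response elements, and in HERPUD1 also the element that joins both.
HERPUD1, chr16:56931892-56932141, plus strand, 250 bases: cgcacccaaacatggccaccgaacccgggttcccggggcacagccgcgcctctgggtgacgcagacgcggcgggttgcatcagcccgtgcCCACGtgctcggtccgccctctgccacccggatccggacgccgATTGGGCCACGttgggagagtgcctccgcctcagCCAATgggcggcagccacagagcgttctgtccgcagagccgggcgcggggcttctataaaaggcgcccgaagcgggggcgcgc
EDEM3, chr1:184754908-184755108, minus strand, 201 bases: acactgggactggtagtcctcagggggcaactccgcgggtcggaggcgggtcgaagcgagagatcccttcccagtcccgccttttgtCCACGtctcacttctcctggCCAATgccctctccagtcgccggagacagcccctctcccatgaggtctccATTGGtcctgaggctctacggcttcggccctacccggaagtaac
SYVN1, chr11:65134533-65134769, minus strand, 237 bases: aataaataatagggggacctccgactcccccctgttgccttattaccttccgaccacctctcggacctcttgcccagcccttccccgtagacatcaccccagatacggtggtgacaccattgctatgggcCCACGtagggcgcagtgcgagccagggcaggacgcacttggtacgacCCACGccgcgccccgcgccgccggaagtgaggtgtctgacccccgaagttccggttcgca
SELENOS, chr15:101277501-101277735, minus strand, 235 bases: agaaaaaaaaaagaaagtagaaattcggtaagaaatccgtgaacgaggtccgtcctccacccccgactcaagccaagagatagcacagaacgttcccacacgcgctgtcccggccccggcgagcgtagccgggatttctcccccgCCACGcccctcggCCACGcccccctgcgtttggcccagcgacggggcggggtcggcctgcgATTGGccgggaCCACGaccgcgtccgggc

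The motifs were searched on both strands in the 250 bases upstream of the RefSeq start of 35116 promoters. ERSE, which is CCAAT and CCACG with any 9 bases between them, was in 0 of the 9 members and in 0.0740% of all promoters. ERSE-II, which is ATTGG and CCACG with any 1 base between them, was in 1 of the 9, HERPUD1, from base -117 to -107, and in 0.0513% of all promoters. Its letters overlap the shorter CCACG and, on the other strand, CCAAT. UPRE, spelled TGACGTGG, was in 0 of the 9 and in 0.612% of all promoters. The short CCACG was in 7 of the 9 (all but EDEM2 and DERL2) and in 33.5% of all promoters, and CCAAT was in 7 of the 9 (all but SYVN1 and EDEM2) and in 32.0%. Both rising and falling members held CCACG in this window.

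Other ERAD genes were taken from a list of 62, of which 60 were tested. RNF5 and DERL3 had 0 normalized counts in all 15 libraries and were not tested. Both have copies on alternate contigs, and whether these affect the counts was not tested. At 500 nM, 6 of the 60 rose and 9 fell, with a median log2 fold change of -0.02, where 7.69% of all tested genes rose and 10.1% fell. Without 0.5 nM replicate 2 the counts were 9 and 10. At 50 nM, 4 rose and 7 fell (5 and 8 without that library), against 2.29% and 3.71% of all tested genes. At 5 nM, 0 rose and 3 fell, against 2.18% of all tested genes in either direction, and without that library 5 fell. At 0.5 nM none passed, with 3 higher and 5 lower at an unadjusted p under 0.05 and 0 called by edgeR or DESeq2. By the slope, 9 rose and 9 fell (11 and 10 without that library), against 8.23% and 9.33%. In either direction, 15 of the 60 passed at 500 nM and 18 by the slope, against 2409 and 2381 of the 13561 tested genes. At 50 nM it was 11 of the 60, against 814 of the tested genes. Whether the list differs from all genes was not tested.

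Of the 9 falls at 500 nM, 6 were among the 8 tested genes of recognition and the ER lumen, where 0 rose (median log2 fold change -0.41). Over all tested genes, 10.1% fell and 7.69% rose at this dose, with a median of 0.003. The list of other ERAD genes was chosen with earlier results of these data known. ERLEC1, the second lectin of the pathway beside OS9, had 928, 913 and 906 normalized counts in DMSO, 642, 652 and 688 at 5 nM and 478, 518 and 494 at 500 nM. It changed by -0.47 at 5 nM (adjusted p = 3.9e-05) and by -0.88 at 500 nM (adjusted p = 5.0e-10, limma), so it passed at a dose where none of the 10 members did. MAN1B1, the mannosidase that starts the trimming, changed by -0.45 at 500 nM (adjusted p = 2.9e-06). TXNDC11, a disulfide reductase of the lumen, changed by -0.47 (adjusted p = 0.00052), and DNAJB9, a co-chaperone of the ER, by -0.42 (adjusted p = 0.0013). DNAJB9 had 354, 344 and 316 normalized counts in DMSO and 228, 283 and 246 at 500 nM. The study names DNAJB9 among chaperone genes that rose in both of its culture formats, which is the opposite direction. The study also states that target genes of the unfolded protein response were suppressed at 6 h, and its text does not name them. HERPUD1, introduced above as such a target, fell at 500 nM, which is the same direction. Of the 10 members, 6 fell and 3 rose at this dose. TOR1A, an ATPase of the lumen, passed at 5 nM with -0.25 (adjusted p = 0.0098, but 0.080 without DMSO replicate 1) and not at 500 nM, at -0.08.

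The other groups act in the membrane and on its cytosolic side. At 500 nM, 7.69% of all tested genes rose and 10.1% fell. Whether groups as small as these differ from all genes was not tested. Among those of extraction, 2 of 12 tested rose and 0 fell at 500 nM. FAF2, which recruits VCP to the membrane, had 1857, 1865 and 1845 normalized counts in DMSO and 2406, 2437 and 2447 at 500 nM, which is 0.39 on the log2 scale (adjusted p = 0.00012, limma). UBXN8 rose by 0.37 (adjusted p = 0.019), which was lost (highest adjusted p = 0.077) without replicate 1 or 2 of DMSO or of 500 nM. Among ubiquitin-conjugating enzymes and ligase cofactors, 3 of 15 rose and 3 fell. AUP1, which brings the conjugating enzyme UBE2G2 to the complex, changed by 0.36 (adjusted p = 0.00013), TMUB2 by 0.31 (adjusted p = 0.00037) and ERLIN2, a scaffold of another membrane ligase, by -0.50 (adjusted p = 0.00019). Of 10 other ligases tested, 1 rose, MARCHF6, at 0.27 (adjusted p = 0.00099). RNF103, also a ligase, was lower at 5 nM at -0.43 (adjusted p = 0.011, and up to 0.073 without replicate 2 or 3 of DMSO, or 1 or 2 of 5 nM) and not at 500 nM, with -0.03. Of 15 tested genes of cytosolic handling, 0 passed at 500 nM. These include BAG6, with 18.3 to 243 normalized counts within the 50 nM group, and GET4, with a mean of 46.2 over all libraries. GET4 shares 80.8% of its exon bases with other genes. BAG6 has copies on 6 alternate contigs, and whether these affect its counts was not tested. For BAG6 and GET4 a missing call is weak evidence of no change.

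**Figure D4:**
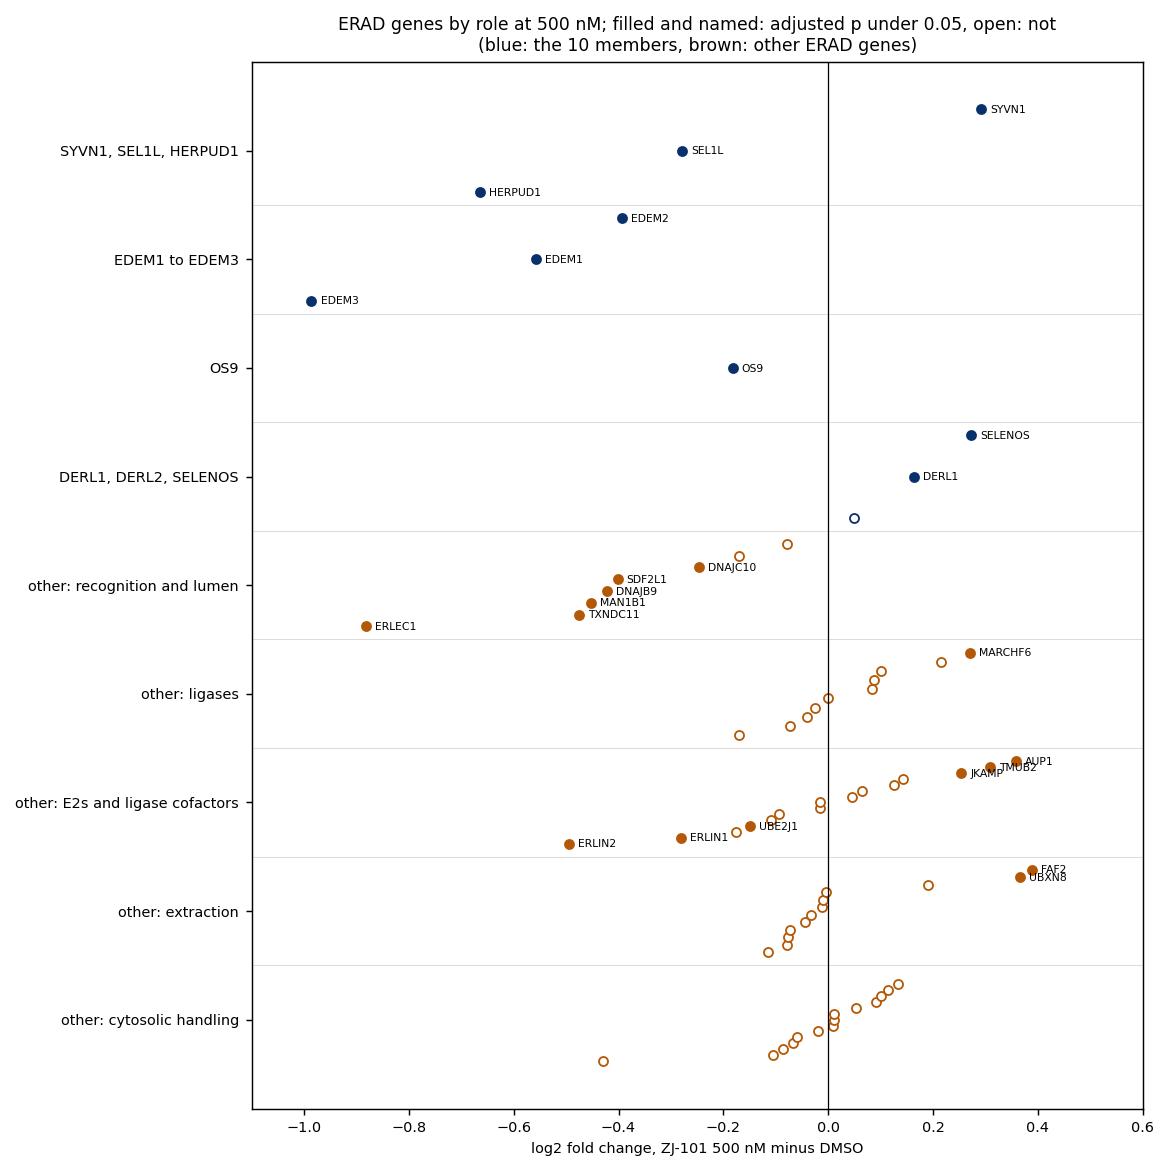
Log2 fold changes at 500 nM against DMSO (x axis) of the 10 members (blue) and 60 other ERAD genes (brown), grouped by role (rows; height within a row only separates the points), where filled and named points passed an adjusted p under 0.05 by limma. Named points of recognition and the lumen lie to the left of 0 from -0.88 for ERLEC1, and those of extraction lie to the right, at 0.37 and 0.39.

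Likeness of pattern was measured by Pearson's r of log2 values over the 15 libraries, which fall into 5 dose groups and share their scaling, so it is given as a description. The patterns most like that of EDEM3 were those of QSOX2, a sulfhydryl oxidase (r = 0.99, log2 fold change -0.92 at 500 nM), SEMA3A, a secreted guidance protein (r = 0.98, -1.42), and NFE2L1, a transcription factor anchored in the ER membrane (r = 0.98, -1.44). Those most like SYVN1 were PLXNB2, a semaphorin receptor (r = 0.97, 0.32), DHX34, a helicase (r = 0.96, 0.30), and CLCN7, a chloride transporter of lysosomes (r = 0.96, 0.23). Among the members, EDEM1 and EDEM3 had an r of 0.96.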

How the data were processed

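RNA of MDA-MB-231 cells was measured in 15 libraries, 3 for each of 5 groups. The authors aligned reads of poly-A RNA to hg38 (HISAT2), counted reads on genes (HTSeq) and scaled the counts by DESeq2 size factors; versions, annotation release and strandedness are not given in the sources used here. The deposited normalized counts (signal) were tested as log2(value + 1) with limma 3.58.1 in R 4.3.3, with a variance trend, for genes with a mean of at least 10. A single model held all 5 groups and no covariate (10 residual degrees of freedom). A second fit tested the slope on the dose rank. The Benjamini-Hochberg threshold was 0.05. Fold changes are on the log2(value + 1) scale. 1 line without a gene was left out. In units of the smallest step of a library, 100.0% of values were whole within 0.001, and these whole reads entered edgeR 4.0.16 and DESeq2 1.42.0 as alternatives. In 2 libraries the step was near 1, so that recovery is less certain there. The study calls the replicates biological, and p measures the spread between these libraries.

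The members, the other ERAD genes and the tests were chosen with earlier results of these data known. Named genes were the 10 members, up to 5 rises and 5 falls among the other ERAD genes at 500 nM, any of these past the threshold at 0.5 or 5 nM, and the 3 genes most like EDEM3 and SYVN1 over the libraries. Positions and exon overlaps came from GENCODE release 44 on GRCh38. No member had a near-identical gene (at least 50% of a transcript at 95% identity, minimap2 2.31-r1302) or a copy on 261 alternate contigs. Replicate numbers were not used to pair the libraries in the main fit. Alternatives were pseudocounts of 0.5 and 5, no filter or a mean of at least 50, the replicate block, TMM scaling, equal totals, edgeR, DESeq2, each library left out, and fits of 2 groups alone.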

Additional observations from a re-analysis of the deposited data

How the results depend on the processing

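Over 25 alternatives and all comparisons, 2000 values of single members were recomputed. Of these, 1941 kept their direction or their side of the threshold, 49 lost a call, 10 gained one and 0 calls turned in direction, while 36 values that were never called changed sign. At 500 nM the members called numbered 7 to 9 with 1 library left out (9 with all), and 4 to 5 at 50 nM (5 with all). The number at 5 nM was 1 in place of 0 with a mean of at least 50, with equal totals, with edgeR and with 2 groups alone. It was 3 in place of 5 from 5 to 50 nM without the filter, and 1 in place of 0 from 50 to 500 nM with 2 groups alone. With 1 library left out it ranged from 0 to 1 at 5 nM, from 3 to 5 from 5 to 50 nM and from 0 to 2 from 50 to 500 nM. Other ERAD genes at 5 nM numbered 7 in place of 3 with 2 groups alone, and 2 to 5 with 1 library left out. Of all genes, 21 in place of 159 passed at 0.5 nM and 846 in place of 295 at 5 nM with 2 groups alone. From 0.5 to 5 nM, 29 passed with DESeq2 and 4 with 2 groups alone, in place of 16. With 1 library left out, all genes called ranged from 19 to 391 at 0.5 nM, 113 to 623 at 5 nM, 560 to 1276 at 50 nM, 7 to 25 from 0.5 to 5 nM, 424 to 1129 from 5 to 50 nM and 139 to 630 from 50 to 500 nM. Without 0.5 nM replicate 2 the numbers were 623 at 5 nM, 1276 at 50 nM, 25, 1129 and 630 over the 3 steps. The highest number at 0.5 nM was without 0.5 nM replicate 3 and the lowest, as at 5 nM, without DMSO replicate 1. The causes were not tested. With the replicate number as a block, 9 members passed at 500 nM, 5 at 50 nM, 8 by the slope and 4 from 5 to 50 nM, where HERPUD1 was lost (adjusted p = 0.056), and 0 elsewhere. Deviations from the group means correlated weakly between samples with the same number (30 pairs, from -0.09 to 0.10, 0 over 0.1). Between samples with different numbers they ranged from -0.13 to 0.12 (60 pairs). A weak batch shared by samples of the same number could go unseen in such correlations. Every member had at least 298 normalized counts in every library. How much of the spread between 3 libraries is counting noise was not tested for single members.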
